A study of Mus musculus with 6 samples.

Results

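The 10 genes described here belong to the BCL2 family, which sets whether a cell keeps or loses the integrity of its mitochondrial outer membrane. They are Bcl2, Bcl2l1 and Mcl1 among the pro-survival genes, the effectors Bax and Bak1, and the BH3-only genes Bbc3, Pmaip1, Bcl2l11, Bid and Bad. They were taken by symbol from a table of raw counts for 32377 mouse genes, each of the 10 had a row, and all 10 passed the filter on low counts. Its 6 columns are RNA-seq libraries: 3 carry the label TNFR2-deficient Treg, and the other 3 the label TNFR2 positive Treg. Treg cells are CD4 T cells that restrain other immune cells under the transcription factor Foxp3, and Tnfrsf1b encodes TNFR2, one of the tumour necrosis factor receptors. The labels give no strain, age, tissue, sort, treatment or allele for either group, and do not say whether the deficiency was genetic. They are silent on whether each library is a different animal or culture, so the p-values below rest on a spread between libraries that could be purely technical.

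As background, pro-survival proteins of the family (BCL-2, BCL-xL from Bcl2l1, and MCL-1) hold the effectors BAX and BAK in check. BH3-only proteins are the sensors: they bind the pro-survival proteins, and some of them also engage BAX and BAK directly. Once BAX and BAK form pores, cytochrome c leaves the mitochondrion and activates caspases. In mouse T cells the pro-survival genes are used in stages. Double-positive thymocytes, the CD4 and CD8 positive precursors, rely on BCL-xL, mature T cells rely on BCL-2 under IL-7, and Treg cells are known to need MCL-1 and to be limited by BIM, the product of Bcl2l11.

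Total counts were 22465991 to 24038118 in the TNFR2-deficient libraries and 19296082 to 23587552 in the TNFR2-positive libraries, so a floor of 3 counts corresponded to 0.125 to 0.154 CPM (counts scaled to library size by TMM), which covers counting error only. In the TNFR2-deficient libraries Tnfrsf1b had 8.30, 7.99 and 7.32 CPM, against 84.6, 84.2 and 80.2 CPM in the TNFR2-positive libraries, the direction of the label. The TNFR2-deficient libraries did not carry the defining markers of Treg cells at the level of the other group. The summed level of 10 Treg markers was 36.6 to 43.1 CPM in them, against 596.9 to 648.4 CPM in the TNFR2-positive libraries, and all 10 were lower. Foxp3 was at 1.44 ± 0.0974 CPM in the TNFR2-deficient libraries and 75.5 ± 2.14 CPM in the TNFR2-positive libraries (SD, n = 3 each). The summed level of 9 markers of double-positive thymocytes was 3013 to 3136 CPM in the TNFR2-deficient libraries, against 355.4 to 373.5 CPM in the TNFR2-positive libraries, and all 9 were higher. Rag1, a subunit of the antigen receptor recombinase, was at 917.9 ± 72.7 CPM in the TNFR2-deficient libraries and 3.31 ± 0.0785 CPM in the TNFR2-positive libraries. Markers of other cells were present in both groups. The summed level of 9 B cell markers (5 higher and 2 lower) was 12390 to 12950 CPM in the TNFR2-deficient libraries and 10540 to 11070 CPM in the TNFR2-positive libraries. That of 8 erythroid markers (8 higher) was 18070 to 20620 CPM in the TNFR2-deficient libraries and 4237 to 7011 CPM in the TNFR2-positive libraries. For 9 myeloid markers (6 higher) it was 885.1 to 956.9 CPM in the TNFR2-deficient libraries and 473.2 to 530.4 CPM in the TNFR2-positive libraries, and for 4 platelet markers (4 higher) 13.6 to 16.0 CPM in the TNFR2-deficient libraries and 4.60 to 5.15 CPM in the TNFR2-positive libraries. None of these markers was at 0 over a whole group. The part of these cells in the results below was not tested, and in bulk libraries fewer cells of a type and less RNA per cell cannot be told apart. TNFR2-positive library 1 stood apart from the other two of its group, with a chi-square per gene of 13.9 and 18.5 against them, compared with 2.45 between those.

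Of the 10 members, 6 were higher and 3 were lower in the TNFR2-deficient libraries and 1 was not called, by edgeR's quasi-likelihood test with Benjamini-Hochberg adjustment and a threshold of 0.05. Over the 17022 genes tested, 69.3% were called, 35.1% higher and 34.2% lower, so a call by itself does not set a member apart. Values of all 10 members did not overlap between the groups, as was so for 74.5% of the genes tested. The median log2 fold change (log2FC, TNFR2-deficient over TNFR2-positive) was 0.30 over the members and 0.04 over all tested genes, and the median absolute log2FC was 0.66 over the members and 0.50 over all tested genes. A call with at least a 2-fold difference was made for 21.5% of the tested genes, and among the members for Bcl2l1, Pmaip1 and Bad.

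**Figure D1:**
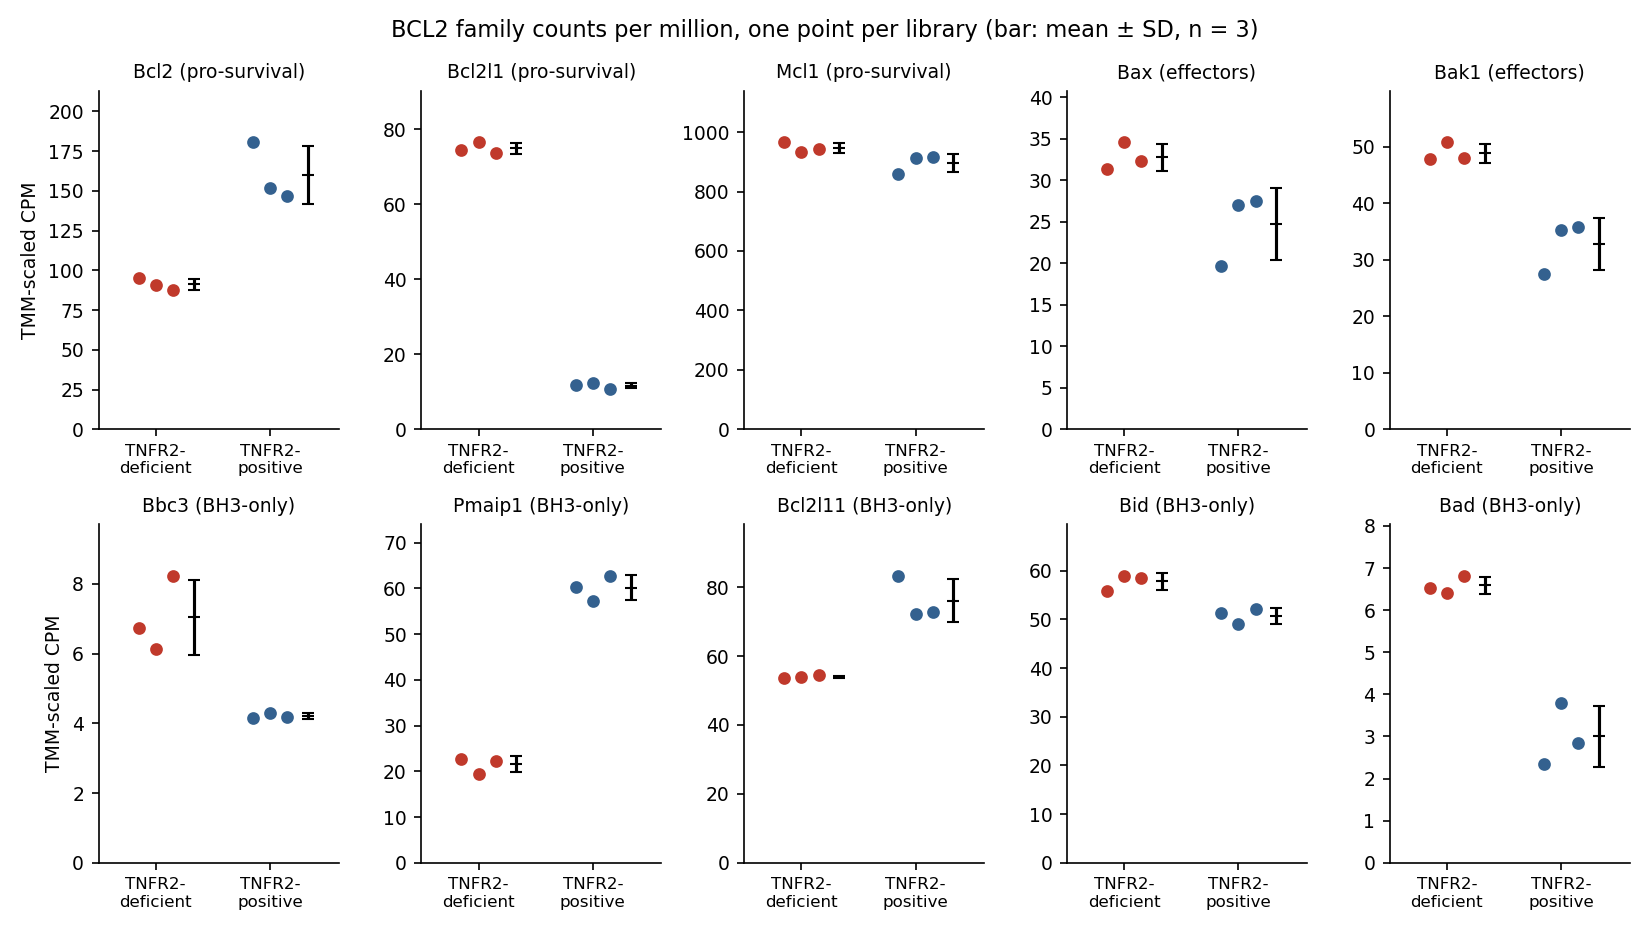
TMM-scaled CPM of the 10 members in each library, with TNFR2-deficient libraries in red and TNFR2-positive libraries in blue, replicates 1 to 3 from left to right, and a bar for the mean ± SD (n = 3). Bcl2l1 lies at 73.7 to 76.5 CPM in the TNFR2-deficient libraries and at 10.9 to 12.2 CPM in the TNFR2-positive libraries, while Bcl2, Pmaip1 and Bcl2l11 are lower in the TNFR2-deficient libraries.

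The pro-survival members moved in different directions, with Bcl2l1 higher, Bcl2 lower and Mcl1 not called. Bcl2l1 (ENSMUSG00000007659), which encodes BCL-xL, had 74.5, 76.5 and 73.7 CPM in the TNFR2-deficient libraries 1 to 3, against 11.9, 12.2 and 10.9 CPM in the TNFR2-positive libraries 1 to 3. The groups lay far apart and neither held a stray library. The difference was 6.43-fold (log2FC = 2.68, SE 0.0698, edgeR adjusted p = 6.44e-11), a size that 5.23% of the tested genes reached in either direction. Among the tested genes Bcl2l1 ranked 2881 by level in the TNFR2-deficient libraries and 8815 in the TNFR2-positive libraries. Rag1 and the thymocyte markers were higher in the same libraries, and their part in this was not tested.

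Bcl2 (ENSMUSG00000057329), the founding member and the main survival gene of mature T cells, had 95.1, 90.6 and 87.8 CPM in the TNFR2-deficient libraries, against 180.6, 151.8 and 146.9 CPM in the TNFR2-positive libraries. Every TNFR2-deficient library was lower, and TNFR2-positive library 1 was the highest of all. The fold was 1.75 (log2FC = -0.81, SE 0.0800, edgeR adjusted p = 3.7e-06). Without TNFR2-positive replicate 1 the log2FC was -0.72, and after every library was corrected for exonic and intronic gene length (length correction) it was -0.43 (edgeR adjusted p = 2.19e-06). Bcl2 is the longest member by exons (9.157 kb) and by introns (166.9 kb). Longer genes were lower in the TNFR2-deficient libraries (Spearman rho = -0.298 between log2FC and exonic length across tested genes, which are not independent). Exons of Bcl2 share 558 bases with D630008O14Rik on the opposite strand. That gene was at 0.602 ± 0.17 CPM in the TNFR2-deficient libraries and 0.433 ± 0.0728 CPM in the TNFR2-positive libraries. Il7r, the receptor chain whose signal maintains Bcl2 in T cells, was at 25.1 ± 1.48 CPM in the TNFR2-deficient libraries and at 186.2 ± 17.1 CPM in the TNFR2-positive libraries. Its part in the level of Bcl2 was not tested, nor which cells of these libraries the transcripts came from.

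Mcl1 (ENSMUSG00000038612), which encodes a short-lived protein that binds BAK and BIM, was the most abundant member per kb in both groups. By CPM, without division by length, it held rank 108 of the tested genes in each group. It had 966.1, 932.8 and 943.8 CPM in the TNFR2-deficient libraries, against 859.9, 911.5 and 916.8 CPM in the TNFR2-positive libraries. The lowest TNFR2-deficient value lay just above the highest TNFR2-positive value. The log2FC of 0.08 was not called (edgeR adjusted p = 0.219), and its 95% interval of -0.04 to 0.20 leaves room for a small difference in either direction.

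The sequences around the annotated starts of Bcl2 and Bcl2l1 are shown because these genes moved in opposite directions. They cover 250 bases before and 50 after each start and come from RefSeq's annotation of GRCm38.p6, whereas the submitters' processing notes name GRCm39 for the counts. Capitals mark matches on either strand to CTTTGA (TCF and LEF factors), AACNG (MYB), TTCNNNGAA (STAT factors) or GTAAACA (FOXO factors), with the reverse complement shown where the match is on the other strand.
Bcl2 (chr1:106714241-106714540, minus strand): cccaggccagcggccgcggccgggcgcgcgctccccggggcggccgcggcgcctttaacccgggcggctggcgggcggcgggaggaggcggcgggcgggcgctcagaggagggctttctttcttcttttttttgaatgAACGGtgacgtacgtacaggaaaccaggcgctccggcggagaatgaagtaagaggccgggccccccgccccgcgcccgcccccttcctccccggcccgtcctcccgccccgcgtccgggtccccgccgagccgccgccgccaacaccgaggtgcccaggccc
Bcl2l1, start 1 (chr2:152831679-152831978, minus strand): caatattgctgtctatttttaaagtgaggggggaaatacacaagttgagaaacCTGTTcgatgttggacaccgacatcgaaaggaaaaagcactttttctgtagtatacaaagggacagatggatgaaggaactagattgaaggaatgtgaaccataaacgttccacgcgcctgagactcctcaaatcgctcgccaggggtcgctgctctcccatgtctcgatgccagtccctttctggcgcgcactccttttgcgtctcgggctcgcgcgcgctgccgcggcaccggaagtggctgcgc
Bcl2l1, start 2 (chr2:152830668-152830967, minus strand): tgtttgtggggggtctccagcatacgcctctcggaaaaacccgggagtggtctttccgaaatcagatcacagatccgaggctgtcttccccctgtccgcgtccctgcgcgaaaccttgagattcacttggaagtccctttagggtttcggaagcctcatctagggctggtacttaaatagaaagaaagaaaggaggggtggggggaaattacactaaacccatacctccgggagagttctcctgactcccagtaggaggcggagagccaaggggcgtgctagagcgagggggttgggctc
Bcl2l1, start 3 (chr2:152828440-152828739, minus strand): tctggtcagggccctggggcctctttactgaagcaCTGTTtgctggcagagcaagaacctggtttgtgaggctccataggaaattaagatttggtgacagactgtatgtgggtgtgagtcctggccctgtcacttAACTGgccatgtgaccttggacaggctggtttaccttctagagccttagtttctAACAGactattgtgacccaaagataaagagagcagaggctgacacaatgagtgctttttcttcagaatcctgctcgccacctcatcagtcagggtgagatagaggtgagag
The window of Bcl2 was 76% G and C with 44 CpG pairs, while the windows of Bcl2l1 were 52.3%, 55.7% and 49.3% G and C with 22, 14 and 1 CpG pairs, and the median over 32841 promoter windows was 52.7%. The MYB letters occurred 1 time in the window of Bcl2 and 1, 0 and 3 times in those of Bcl2l1, and 80.3% of all windows held them. No window shown held the TCF, STAT or FOXO letters, which 16%, 8.3% and 3.65% of all windows did. These matches describe letters only, and gene counts do not show which start was used.

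Both effectors were higher by a small amount. Bax (ENSMUSG00000003873), whose protein moves from the cytosol to the mitochondrion when activated, had 31.4, 34.6 and 32.3 CPM in the TNFR2-deficient libraries, against 19.7, 27.0 and 27.5 CPM in the TNFR2-positive libraries. TNFR2-positive library 1 was the lowest of the 6. The log2FC was 0.41 (1.33-fold, SE 0.110, edgeR adjusted p = 0.00579), and it was 0.26 without TNFR2-positive replicate 1. After length correction it was 0.09 and no longer called (edgeR adjusted p = 0.362). Of the 1576 exonic bases of Bax, 192 are shared with Gm45808 on the same strand, which a strand setting cannot separate.

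Bak1 (ENSMUSG00000057789), which encodes BAK, a resident of the mitochondrial membrane, had 47.8, 50.8 and 47.9 CPM in the TNFR2-deficient libraries, against 27.5, 35.3 and 35.7 CPM in the TNFR2-positive libraries. The same TNFR2-positive library was the lowest again. The log2FC was 0.57 (1.49-fold, SE 0.0920, edgeR adjusted p = 0.000156), and after length correction it was 0.32 (edgeR adjusted p = 0.00115). The ratio of Bax to Bak1 per kb of exon changed little, at a log2 ratio of 0.03 ± 0.03 in the TNFR2-deficient libraries and 0.20 ± 0.06 in the TNFR2-positive libraries (SD, n = 3 each). Exons of Bak1 overlap those of Ggnbp1 on the opposite strand, a gene at only 0.971 ± 0.17 CPM in the TNFR2-deficient libraries and 1.09 ± 0.254 CPM in the TNFR2-positive libraries.

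The BH3-only members split, with Bad, Bbc3 and Bid higher and Pmaip1 and Bcl2l11 lower. Pmaip1 (ENSMUSG00000024521), which encodes NOXA, a partner and antagonist of MCL-1, had the greatest difference of the 5. It had 22.7, 19.5 and 22.3 CPM in the TNFR2-deficient libraries, against 60.3, 57.4 and 62.8 CPM in the TNFR2-positive libraries. All TNFR2-deficient libraries lay well below the others, with no stray value. The fold was 2.80 (log2FC = -1.48, SE 0.0747, edgeR adjusted p = 1.57e-08), and the log2FC lay between -1.71 and -1.43 over all alternatives run.

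Bcl2l11 (ENSMUSG00000027381), which encodes BIM, the sensor that removes self-reactive thymocytes and surplus T cells, had 53.6, 53.8 and 54.4 CPM in the TNFR2-deficient libraries, against 83.3, 72.1 and 72.8 CPM in the TNFR2-positive libraries. The TNFR2-deficient values were nearly equal and all lower. The fold was 1.41 (log2FC = -0.50, SE 0.0682, edgeR adjusted p = 4.78e-05). After length correction the log2FC was -0.14, still called (edgeR adjusted p = 0.0245).

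Bad (ENSMUSG00000024959), whose protein is silenced by growth factor kinases and binds BCL-2 and BCL-xL, had 6.53, 6.41 and 6.82 CPM in the TNFR2-deficient libraries, against 2.36, 3.79 and 2.86 CPM in the TNFR2-positive libraries. It was the least abundant member per kb in both groups, and its TNFR2-positive libraries were the more spread. The fold was 2.21 (log2FC = 1.15, SE 0.167, edgeR adjusted p = 7.66e-05). Of its 2558 exonic bases, 524 are shared with Gpr137 on the opposite strand. The strand setting of the counts is not given, so reads of both genes may be mixed, and Gpr137 was itself higher (16.9 ± 2.06 CPM in the TNFR2-deficient libraries and 10.6 ± 1.02 CPM in the TNFR2-positive libraries, log2FC = 0.68, edgeR adjusted p = 0.000213).

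Bbc3 (ENSMUSG00000002083), which encodes PUMA, a p53 target that can bind every pro-survival protein of the family, had 6.75, 6.14 and 8.23 CPM in the TNFR2-deficient libraries, against 4.16, 4.30 and 4.17 CPM in the TNFR2-positive libraries. Here the TNFR2-deficient libraries were both higher and more spread. The log2FC was 0.74 (1.68-fold, SE 0.141, edgeR adjusted p = 0.000558), and 0.47 after length correction (edgeR adjusted p = 0.00926).

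Bid (ENSMUSG00000004446), which links death receptors to mitochondria once caspase 8 cleaves it, had 55.9, 59.0 and 58.6 CPM in the TNFR2-deficient libraries, against 51.3, 49.0 and 52.1 CPM in the TNFR2-positive libraries. The groups were separate but close. Its log2FC of 0.19 was the smallest called among the members (SE 0.0595, edgeR adjusted p = 0.0145). The call was lost with DESeq2 (adjusted p = 0.0826) and without TNFR2-deficient replicate 2, TNFR2-deficient replicate 3 or TNFR2-positive replicate 2 (edgeR adjusted p = 0.0629, 0.0736 and 0.0636). Bid shares 628 of its 3550 exonic bases with Bcl2l13 on the opposite strand, which was lower (log2FC = -0.68).

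**Figure D2:**
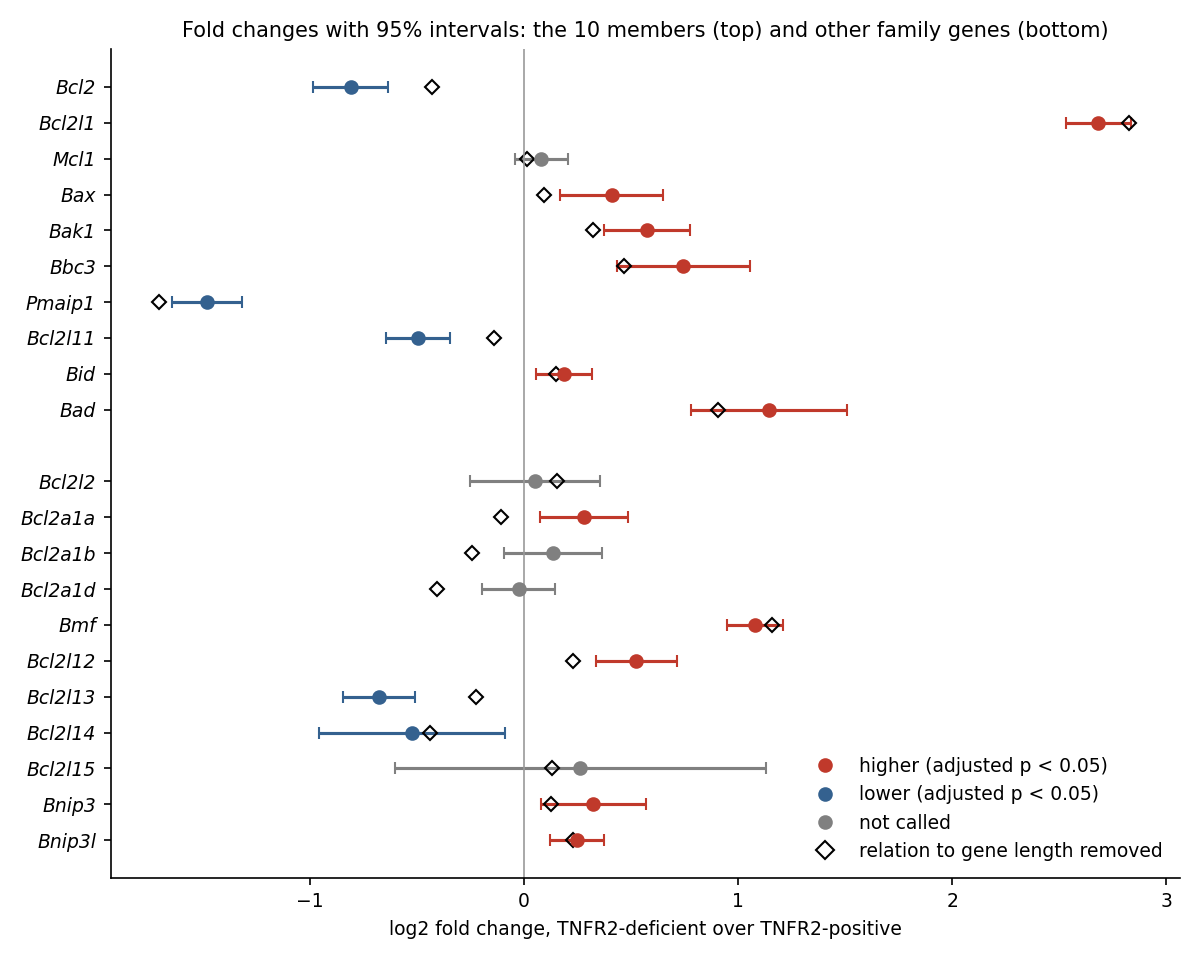
Log2FC of the 10 members (top) and of the other tested family genes (bottom), TNFR2-deficient over TNFR2-positive, with 95% intervals from edgeR; open diamonds give the value after length correction. Bcl2l1 at 2.68 and Pmaip1 at -1.48 move outward after that correction, whereas Bcl2 goes to -0.43, Bcl2l11 to -0.14 and Bax to 0.09.

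Levels were compared between members as CPM per kb of exonic length. Mcl1 stood far above the rest, at 277.2 ± 4.98 CPM per kb in the TNFR2-deficient libraries and 262.2 ± 9.20 CPM per kb in the TNFR2-positive libraries (SD, n = 3 each). In the TNFR2-deficient libraries Bax (20.8 ± 1.04) and Bak1 (20.3 ± 0.698) followed with overlapping values, then Bcl2l1 (16.3 ± 0.315) and Bid (16.3 ± 0.476), also overlapping, then Bcl2 (9.95 ± 0.401), Pmaip1 (7.87 ± 0.642), Bcl2l11 (6.72 ± 0.0518), Bbc3 (3.31 ± 0.507) and Bad (2.57 ± 0.0824 CPM per kb). In the TNFR2-positive libraries Pmaip1 came next after Mcl1 (22.02 ± 0.996), then Bcl2 (17.5 ± 1.99), Bax (15.7 ± 2.76), Bid (14.3 ± 0.454) and Bak1 (13.6 ± 1.92), each overlapping the next, then Bcl2l11 (9.48 ± 0.781), Bcl2l1 (2.54 ± 0.154), Bbc3 (1.98 ± 0.0369) and Bad (1.17 ± 0.284 CPM per kb). The order thus differed most for Bcl2l1, at position 4 in the TNFR2-deficient libraries and 8 in the TNFR2-positive libraries, and for Pmaip1, at position 7 in the TNFR2-deficient libraries and 2 in the TNFR2-positive libraries.

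**Figure D3:**
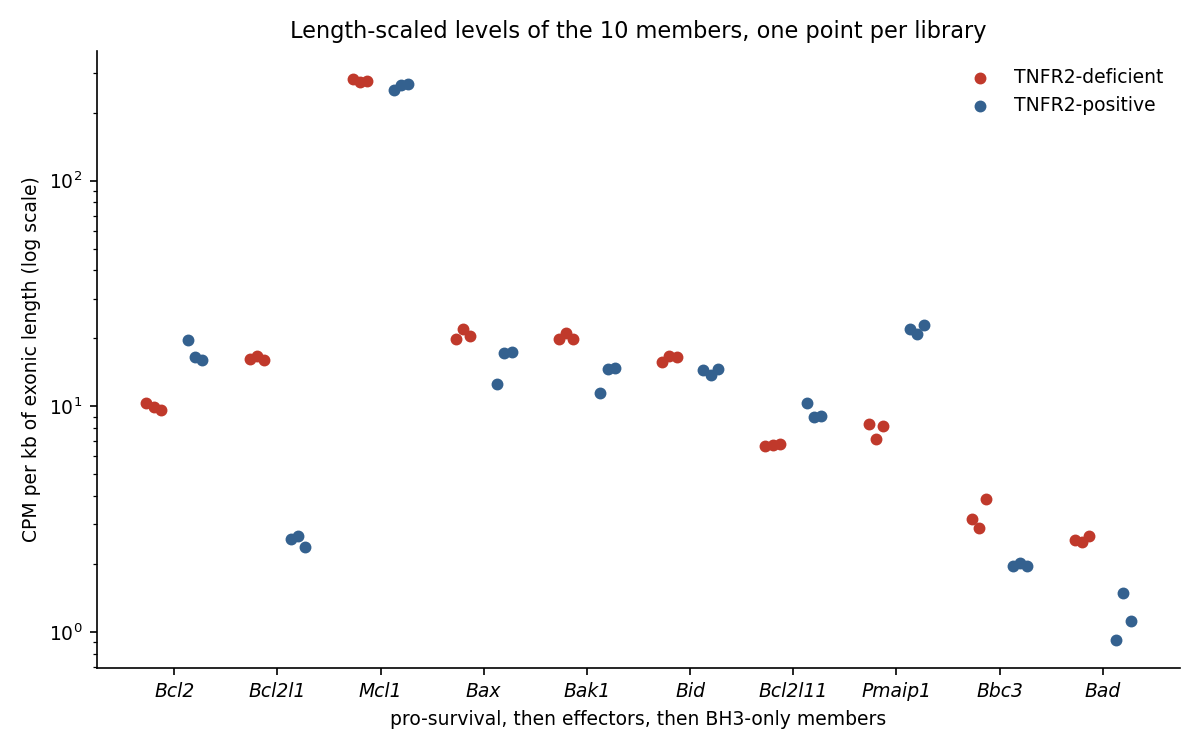
CPM per kb of exonic length on a log axis for the 10 members, 1 point per library, with TNFR2-deficient libraries (red) to the left of TNFR2-positive libraries (blue). Mcl1 lies at 251.6 CPM per kb or above in every library, and Bcl2 and Bcl2l1 change places between the groups on this scale, but not in CPM undivided by length.

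Per kb of exon, transcripts of BCL-xL exceeded those of BCL-2 in the TNFR2-deficient libraries and lay below them in the TNFR2-positive libraries. This order in the TNFR2-deficient libraries rests on the division by length: in CPM, Bcl2 lay above Bcl2l1 in all 6 libraries, at 91.1 and 74.9 CPM on average in the TNFR2-deficient libraries and at 159.8 and 11.7 CPM in the TNFR2-positive libraries. The difference in the ratio between the groups does not depend on this division. The log2 ratio of Bcl2l1 to Bcl2 per kb was 0.65, 0.75 and 0.75 in the TNFR2-deficient libraries, against -2.93, -2.64 and -2.76 in the TNFR2-positive libraries, an 11.2-fold difference in the ratio. Bcl2l1 thus made up 62.1% ± 0.972 of the summed level per kb of this pair in the TNFR2-deficient libraries and 12.8% ± 1.13 in the TNFR2-positive libraries (SD, n = 3 each). Beside Mcl1 both were minor. Of the summed level of the 3 pro-survival members, Mcl1 held 91.3% ± 0.192, Bcl2l1 5.38% ± 0.166 and Bcl2 3.28% ± 0.0927 in the TNFR2-deficient libraries. Mcl1 held 92.9% ± 0.918, Bcl2l1 0.901% ± 0.0653 and Bcl2 6.198% ± 0.873 in the TNFR2-positive libraries. The summed level of the 3 was 303.5 ± 5.13 CPM per kb in the TNFR2-deficient libraries and 282.2 ± 7.17 CPM per kb in the TNFR2-positive libraries. Such sums and shares were not tested, and transcripts do not measure protein, which matters for the short-lived MCL-1.

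Ratios of sensors to their partners differed as well. The log2 ratio of Pmaip1 to Mcl1 per kb was -5.14 ± 0.10 in the TNFR2-deficient libraries and -3.57 ± 0.08 in the TNFR2-positive libraries. The log2 ratio of Bcl2l11 to Bcl2l1 was -1.28 ± 0.04 in the TNFR2-deficient libraries, where BIM transcripts were below those of BCL-xL, and 1.90 ± 0.13 in the TNFR2-positive libraries, where they were above. The ratio of Bcl2l11 to Bcl2 moved far less, at -0.57 ± 0.07 in the TNFR2-deficient libraries and -0.88 ± 0.05 in the TNFR2-positive libraries. Within the BH3-only members Pmaip1 held 21.4% ± 1.45 and Bid 44.3% ± 1.76 of the summed level in the TNFR2-deficient libraries, while Pmaip1 held 45.0% ± 1.02 and Bid 29.2% ± 0.227 in the TNFR2-positive libraries. The summed level of the 5 was 36.8 ± 1.11 CPM per kb in the TNFR2-deficient libraries and 49.0 ± 1.45 CPM per kb in the TNFR2-positive libraries, while that of Bax and Bak1 was 41.1 ± 1.72 CPM per kb in the TNFR2-deficient libraries and 29.3 ± 4.68 CPM per kb in the TNFR2-positive libraries.

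Relatives outside the 10 members moved in both directions. Of 15 listed, 14 had a row and 11 passed the filter on low counts, of which 5 were higher and 2 were lower (median log2FC = 0.25), against 35.1% higher and 34.2% lower over all tested genes. With DESeq2 3 were higher and 1 lower, after length correction 3 and 3, and in the fits without a library 3 to 5 and 1 to 2. The greatest difference was that of Bmf, a BH3-only gene whose protein binds pro-survival partners when released from the cytoskeleton. It had 78.2, 81.5 and 85.1 CPM in the TNFR2-deficient libraries, against 39.0, 38.6 and 38.5 CPM in the TNFR2-positive libraries (2.11-fold, log2FC = 1.08, SE 0.0601, edgeR adjusted p = 3.85e-08), opposite in direction to Bcl2l11. With Bmf added, a choice made after its value was seen, the summed level of BH3-only genes was 52.3 ± 1.64 CPM per kb in the TNFR2-deficient libraries and 56.3 ± 1.47 CPM per kb in the TNFR2-positive libraries, a narrower gap than without it.

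The mitophagy receptor Bnip3l and its relative Bnip3 were higher by 0.25 and 0.32 on the log2 scale (edgeR adjusted p = 0.00239 and 0.0228), and Bcl2l12 by 0.52 (adjusted p = 0.000193), the last beside Irf3, which overlaps it on the opposite strand and was also higher (log2FC = 0.68). Bcl2l13, another mitophagy receptor, and the low Bcl2l14 were lower (log2FC = -0.68 and -0.52, adjusted p = 1.16e-05 and 0.033). Calls of Bnip3 and Bcl2l14 were lost with DESeq2 (adjusted p = 0.0971 and 0.0677) and in 3 and 5 of the 6 fits that left out a library. After length correction the log2FC was 0.13 for Bnip3, no longer called, 0.23 for Bcl2l12 and -0.23 for Bcl2l13. Bcl2l2, which encodes BCL-W, had a log2FC of 0.05 (95% interval -0.26 to 0.35), and Bcl2l15 one of 0.26 (-0.60 to 1.13).

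The Bcl2a1 genes encode A1, a pro-survival protein induced by NF-kB, in near-identical copies whose reads may be shared. Bcl2a1a rose by 0.28 on the log2 scale (edgeR adjusted p = 0.0196), a call lost with DESeq2 (adjusted p = 0.0998) and without TNFR2-deficient replicate 2 or TNFR2-positive replicate 3. Bcl2a1b had a log2FC of 0.14 and Bcl2a1d one of -0.03, neither of them called. After length correction the 3 values were -0.11, -0.25 and -0.41, and Bcl2a1b and Bcl2a1d were called lower (edgeR adjusted p = 0.0383 and 9.99e-05). Their summed level was 44.0 ± 2.24 CPM in the TNFR2-deficient libraries and 41.5 ± 1.84 CPM in the TNFR2-positive libraries. Bok, a relative of BAX and BAK, and the BH3-only genes Hrk and Bik did not pass the filter, with at most 9 counts in any library.

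Several regulators upstream of the family differed by large folds. Of 10 tested transcription factors known to act on family genes, 4 were higher and 3 lower (median log2FC = 0.11). Over all tested genes 35.1% were higher and 34.2% lower. Tcf7, a factor that supports the survival of double-positive thymocytes, was at 994.6 ± 9.08 CPM in the TNFR2-deficient libraries and 221.7 ± 3.80 CPM in the TNFR2-positive libraries (log2FC = 2.17, edgeR adjusted p = 6.3e-11). Myb, which also supports these thymocytes, was at 262.6 ± 19.1 CPM in the TNFR2-deficient libraries and 37.1 ± 0.725 CPM in the TNFR2-positive libraries (log2FC = 2.82, edgeR adjusted p = 5.63e-11). Rel, an NF-kB subunit that can induce Bcl2l1 and A1 in lymphocytes, was at 153.0 ± 11.1 CPM in the TNFR2-deficient libraries and 354.2 ± 40.2 CPM in the TNFR2-positive libraries, opposite in direction to Bcl2l1 (log2FC = -1.21, edgeR adjusted p = 2.67e-07). The part of these factors in the levels of the family genes was not tested.

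Of 7 tested cytokine receptor chains 4 were lower and 2 higher (median log2FC = -0.32), beside 34.2% lower and 35.1% higher over all tested genes. Il2ra and Il2rb, chains of the IL-2 receptor that signals survival to Treg cells, were lower (log2FC = -4.62 and -3.35, edgeR adjusted p = 1.5e-11 and 2.33e-11), as was Il7r (log2FC = -2.89, adjusted p = 1.27e-10). Il2ra also stands among the Treg markers. Of the members that p53 can induce, Bbc3 and Bax were higher and Pmaip1 was lower. Trp53, the p53 gene, was higher (log2FC = 0.51, edgeR adjusted p = 1.91e-05), named here after its value was seen. Of 8 tested p53 targets outside the family 1 was higher and 3 were lower (median log2FC = -0.09). Over all tested genes the shares were again 35.1% higher and 34.2% lower. The number of these targets that were higher was 0 or 1 when a library was left out and 2 after length correction. Cdkn1a, the cell cycle inhibitor p21, Ccng1 and Aen were lower (log2FC = -0.68, -0.41 and -0.29, edgeR adjusted p = 0.00586, 0.000306 and 0.0013).

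Downstream of the family, the lists were mixed. Of 7 genes of the apoptosome and of caspases 2 were higher and 2 lower (median log2FC = -0.03). Over all tested genes 35.1% were higher and 34.2% lower. Casp6, an executioner caspase, was at 35.4 ± 1.52 CPM in the TNFR2-deficient libraries and 17.2 ± 2.24 CPM in the TNFR2-positive libraries (log2FC = 1.05, edgeR adjusted p = 1.43e-06). Cycs, cytochrome c, rose by 0.38 and Apaf1, the scaffold it activates, fell by 0.74 (adjusted p = 0.000645 and 1.35e-05). Of 9 inhibitors of apoptosis and mitochondrial release factors 5 were lower and 3 higher (median log2FC = -0.58), beside 34.2% lower and 35.1% higher over all tested genes. The number higher was 1 with DESeq2, 1 after length correction and 1 to 2 in the fits without a library, where the number lower was 5 in each. Birc6, Xiap and Birc2, which restrain caspases or cell death signalling, were lower (log2FC = -1.51, -0.97 and -0.67, edgeR adjusted p = 6.13e-06, 3.97e-06 and 3.31e-06). Birc6 has 25.77 kb of exons, and its log2FC was -0.63 (edgeR adjusted p = 9.92e-07) after length correction, which also brought Xiap to -0.51 and Apaf1 to -0.30 with their calls kept.

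Of 5 genes that act on MCL-1 turnover or hold BAK, 3 were lower and 2 higher (median log2FC = -0.30). Over all tested genes 34.2% were lower and 35.1% higher. Huwe1, a ubiquitin ligase for MCL-1, was at 234.3 ± 2.27 CPM in the TNFR2-deficient libraries and 647.4 ± 185.0 CPM in the TNFR2-positive libraries, where library 1 had 858.8 CPM and the others 568.5 and 514.9 CPM (log2FC = -1.47, edgeR adjusted p = 4.55e-06). Its log2FC was -0.60 (edgeR adjusted p = 1.14e-06) after length correction. Usp9x, which removes ubiquitin from MCL-1, had a log2FC of -0.53 (edgeR adjusted p = 0.000392). After that correction it was called in the opposite direction (log2FC = 0.14, edgeR adjusted p = 0.0218), which left 1 gene of this list lower. The median log2FC over all genes was then 0.10, against 0.04 in the main test, so Usp9x lay near that median. March5, a mitochondrial ubiquitin ligase, rose by 0.43 (adjusted p = 8.59e-05).

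**Figure D4:**
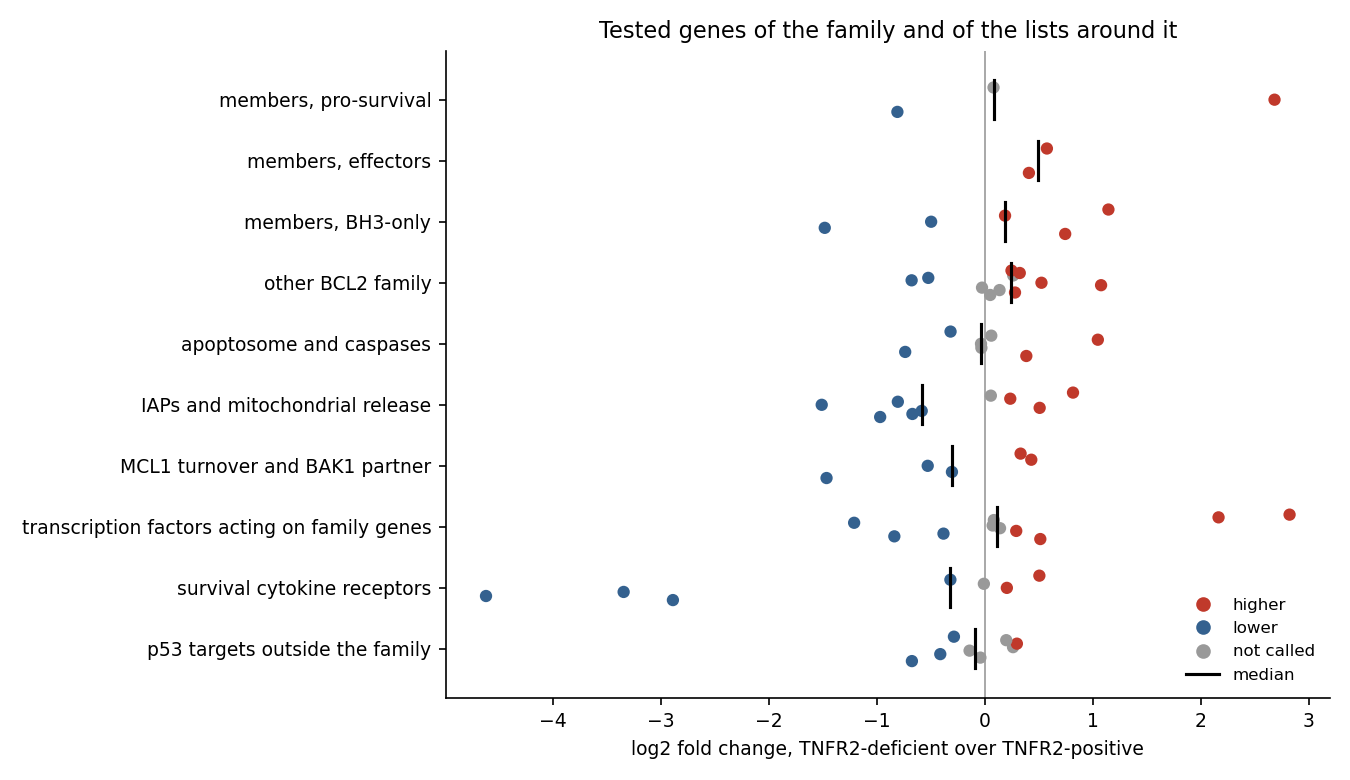
Log2FC of each tested gene of the family and of the lists around it, TNFR2-deficient over TNFR2-positive, with 1 point per gene and a black bar at the median of each list. List medians lie between -0.58 and 0.49, and the widest spreads are among transcription factors, up to 2.82, and cytokine receptors, down to -4.62.

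Among 9825 other named genes with a mean of at least 5 CPM, those nearest to Bcl2l1 in their centred log2 CPM over the 6 libraries were Nav2, C1qc and Jup, at root mean square distances of 0.0402, 0.0482 and 0.0803 (log2 units). Nav2 was at 32.7 ± 1.35 CPM in the TNFR2-deficient libraries and 4.77 ± 0.371 CPM in the TNFR2-positive libraries. C1qc, a complement gene of macrophages, was at 111.3 ± 7.49 CPM in the TNFR2-deficient libraries and 17.1 ± 1.22 CPM in the TNFR2-positive libraries. Those nearest to Bcl2 were Atf7ip, Ago1 and Tcf20, at distances of 0.0241, 0.0281 and 0.0283, with Atf7ip at 138.2 ± 4.44 CPM in the TNFR2-deficient libraries and 241.0 ± 26.1 CPM in the TNFR2-positive libraries. The 6 libraries form 2 groups, so these distances describe a shared group difference and little else.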

How the data were processed

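Per the labels' protocols, RNA extracted with TRIzol was enriched for mRNA on oligo-dT beads, and no molecular identifier is mentioned before PCR. The aligner HISAT2 2.1.0 and the build GRCm39 are listed per the submitters' processing notes. The counting program, annotation and strand setting were not given in the sources used here. Values are raw whole-number counts per gene, as deposited. Symbols came from a supplied table that matched 30529 of 32377 identifiers, and Marchf5 was found under its older symbol March5.

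In edgeR 4.0.16 (R 4.3.3), filterByExpr removed low genes, TMM set the scale, and the quasi-likelihood test (glmQLFit, glmQLFTest) had group as its only term, over 17022 genes, with Benjamini-Hochberg adjustment and a threshold of 0.05. The procedure was tested on simulated data. Exonic lengths are unions of exons in GENCODE M21, an older build, used for lengths and overlaps only. For length correction, splines with 4 degrees of freedom in exonic and intronic length were fitted per library and entered as offsets, which 97.8% of tested genes allowed. This also removes any real difference that follows length. The other alternatives were DESeq2 1.42.0, limma-voom (limma 3.58.1), other scalings and filters, a minimum fold change, a block for the replicate number, and fits without each library in turn.

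The members, gene lists and tests were chosen with earlier results of these data known. The text names all members and tested relatives, and the 3 genes of each other list with the smallest adjusted p. Groups and replicate numbers came from the sample titles. Deviations of same-numbered libraries from their group means correlated weakly, which with 3 libraries per group cannot settle whether they are pairs. A listed item is not reported here.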

Additional observations from a re-analysis of the deposited data

How the results depend on the processing

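Bcl2l1, Pmaip1 and Tnfrsf1b kept their direction and call under every alternative run. Against a minimum log2FC of 1, the calls of Bcl2 (-0.81), Bax (0.41), Bak1 (0.57), Bbc3 (0.74), Bcl2l11 (-0.50), Bid (0.19) and Bad (1.15) were lost, leaving 1 member higher and 1 lower, and 764 and 1434 of all genes. Under it the number higher was 0 for the other family genes, apoptosome, MCL1 turnover, cytokine receptor and p53 target lists. It was also 0 for the list of inhibitors of apoptosis and mitochondrial release factors, and 2 for transcription factors. The number lower was 0 for the other family genes, apoptosome and p53 targets. It was 1 for MCL1 turnover, for transcription factors, and for the list of inhibitors of apoptosis and release factors. With DESeq2, Bid (0.16) lost its call, and 3 other family genes were higher and 1 lower. In the list of inhibitors of apoptosis and release factors, 1 gene was then higher. After length correction, Bax was at 0.091, with 3 other family genes and 2 p53 targets higher and 1 gene of MCL1 turnover lower. That correction also left 1 gene higher among the inhibitors of apoptosis and release factors. Bcl2a1a (-0.11), Bcl2a1b (-0.25) and Usp9x (0.14) then changed sign, Bcl2a1b and Bcl2a1d were newly called lower and Usp9x higher. Upper-quartile scaling gave 2 p53 targets higher. Bcl2a1d, near 0 in the main test, was at 0.024 with that scaling and 0.0051 without a filter.

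Leaving out 1 library, the log2FC of Bid ranged from 0.16 to 0.21 and the members higher from 5 to 6. Other family genes higher ranged from 3 to 5 and lower from 1 to 2. In the list of inhibitors of apoptosis and mitochondrial release factors, the number higher ranged from 1 to 2. Cytokine receptors higher ranged from 1 to 2 and p53 targets higher from 0 to 1. Bcl2a1d ranged from -0.082 to 0.013 and Bcl2l2 from -0.13 to 0.15. Without division by length, the shares in the TNFR2-deficient and TNFR2-positive libraries were 8.18% and 14.98% for Bcl2, 6.73% and 1.09% for Bcl2l1 and 85.1% and 83.9% for Mcl1, which puts Bcl2 above Bcl2l1 in both groups. Scalings moved the median log2FC of all genes from 0.01 to 0.09, and after length correction it was 0.10.

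With the replicate number as a block, 6 members were higher and 3 lower, with Bcl2l1 at 2.68 and Bcl2 at -0.80, and no member changed its call. Under the block the adjusted p rose for Mcl1 (edgeR, 0.259) and Bid (0.0165). It fell for the other members, to 6.8e-08 for Bcl2 and 0.000523 for Bax. Deviations of same-numbered libraries correlated at 0.07, 0.10 and -0.09, and not every library correlated best with its own number. With 3 libraries per group, such correlations cannot settle whether the numbers pair the libraries. Members under 10 CPM (Bbc3 and Bad) rest on 55 to 198 counts per library, so their fold is less well set than that of Mcl1.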
